A study of Trichoderma reesei with 36 samples.

Results

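The lactose permease CRT1 of *Trichoderma reesei* (TRIREDRAFT_3405) and the transporters of the major facilitator superfamily (MFS) encoded by TRIREDRAFT_69957, TRIREDRAFT_77517 and TRIREDRAFT_79202 were followed over all libraries. The count files, like the plots here, give only the digits of these locus tags, and 69957's, 77517's and 79202's rows were taken beside that of CRT1. They are 4 of the 9129 genes counted, and all 4 passed the filter on low counts that kept 8347 genes for testing. The strain was Rut-C30 in every library, a cellulase hyperproducer whose catabolite repressor CRE1 is truncated, so that the G100 controls carry this truncation as well. All cultures first grew on glucose for about 48 h in batch mode and were then fed in small flasks with pure glucose (G100), 90% glucose and 10% lactose (G90-L10), 75% glucose and 25% lactose (G75-L25) or pure lactose (L100). Mycelium was sampled 24 h and 48 h after the feed began. G100 and L100 had 6 libraries at each time, G75-L25 had 4 and G90-L10 had 2, which makes 36 libraries in 8 groups.

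MFS permeases are membrane proteins that carry small molecules such as sugars across the membrane, and sugar porters of this family commonly use the proton gradient. Lactose is taken up by such permeases or is first split outside the cell by a β-galactosidase. In *T. reesei* lactose is a soluble inducer of cellulases, and CRT1 is known to be needed for growth on lactose and for cellulase induction by it. The function table of the study describes TRIREDRAFT_69957 as a putative sugar transporter for D-xylose and TRIREDRAFT_79202 as a putative permease, and TRIREDRAFT_77517 is called an MFS transporter here without a transported sugar.

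Total counts ran from 9955798 to 49808747 per library with a median of 23493202.5, and no 2 libraries of a group were identical. The lowest count of any of the 4 genes in any library was 113, for TRIREDRAFT_69957 on G100, so all 4 were measured well above the floor of the counting. The labels of G100 and L100 libraries begin with the year 2014 and those of the mixtures with 2015. A mixture against a pure feed is therefore also 1 label year against the other, and these cannot be told apart, whereas G100 and L100 share a label year and so do both mixtures. What the year marks is not given. In all, 3 libraries stood apart from their groups. The library labelled L100 48 h replicate 3 held the cellobiohydrolase CBH1 at 4154 CPM against 159390 to 206465 in the other 5 L100 48 h libraries. In the libraries labelled G75-L25 24 h replicate 4 and G75-L25 48 h replicate 4, CBH1 was at 91397 and 105688 CPM, above the 54642 to 68602 and 52401 to 62074 of the other 3 libraries of each group. Whether these 3 libraries carry the right labels could not be settled from the sources used here, and values over all libraries of L100 48 h and of G75-L25 rest on their labels as deposited. Results are therefore given for all 36 libraries and for the 33 without these 3. CPM are counts brought to a common library size with TMM factors, which correct for differences in library composition.

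CRT1 was among the most abundant transcripts on every feed, and its level was higher on every lactose feed than on G100. In these samples of mycelium, fewer cells with a transcript and less of it per cell cannot be told apart. On G100 at 24 h it ranged from 4343 to 7382 CPM with a median of 6109 (n = 6), and on L100 at 24 h from 44893 to 57207 CPM with a median of 51026 (n = 6). On G90-L10 CRT1 was at 24637 and 26190 CPM at 24 h, and on G75-L25 at 37912, 47439, 41248 and 38206 CPM. No lactose library at 24 h overlapped with G100, and the G90-L10 libraries lay between G100 and all libraries of the feeds richer in lactose. CRT1 took 0.752% ± 0.158 of all counts on G100 (SD, n = 6) and 4.24% ± 0.468 on L100 at 24 h (SD, n = 6).

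At 48 h CRT1 ranged from 4629 to 10816 CPM on G100 with a median of 8603 (n = 6). The pair of G90-L10 libraries held 25089 and 17577 CPM, and the G75-L25 libraries 30516, 38637, 35581 and 44803 CPM. On L100, 5 libraries held 37529 to 54472 CPM, and the library labelled L100 48 h replicate 3 held 1702 CPM, below every G100 library. The other libraries followed the order of 24 h, with G100 lowest, G90-L10 next and G75-L25 overlapping with L100.

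TRIREDRAFT_69957 spanned the widest range of the 4. On G100 at 24 h it ranged from 4.65 to 9.44 CPM with a median of 7.02 (n = 6), and on L100 from 767 to 1128 CPM with a median of 978 (n = 6). On G90-L10 it was at 66.4 and 75.0 CPM, and on G75-L25 at 221, 288, 282 and 138 CPM, the last being replicate 4. No feed overlapped with another at 24 h, so the 4 feeds formed 4 separate levels. The share of all genes that separate in this way is not given here, for this gene or the other 3. Of all 8347 genes at 24 h, 5282 on L100, 4562 on G75-L25 and 1850 on G90-L10 differed from G100 at an unadjusted edgeR p below 0.05. At 48 h the range was 6.21 to 23.1 CPM on G100 with a median of 15.997 (n = 6). At the lowest lactose share, G90-L10, it was at 96.7 and 57.2 CPM, in the G75-L25 libraries at 255, 268, 221 and 186 CPM, and in 5 L100 libraries at 775 to 1038 CPM. The library labelled L100 48 h replicate 3 held 11.2 CPM, within the range of G100, and without it the 4 feeds were again separate.

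TRIREDRAFT_79202 followed CRT1 at a lower level. On G100 at 24 h it ranged from 426 to 817 CPM with a median of 637 (n = 6), and on L100 from 6326 to 7841 CPM with a median of 7036 (n = 6). G90-L10 libraries were at 4848 and 4519 CPM, and G75-L25 libraries at 5852, 7795, 5955 and 6643 CPM at 24 h. G75-L25 overlapped with L100, and both G90-L10 libraries lay below every library of those feeds and above every G100 library. At 48 h the range on G100 was 336 to 797 CPM with a median of 620 (n = 6). On G90-L10 the libraries were at 2965 and 2188 CPM, those of G75-L25 at 3667, 4668, 4018 and 6808 CPM, and 5 of L100 at 4781 to 7839 CPM. G75-L25 48 h replicate 4 was the only library of its feed within the range of these 5, and the library labelled L100 48 h replicate 3 held 195 CPM, below every G100 library.

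TRIREDRAFT_77517 spanned the narrowest range of the 4. On G100 at 24 h it ranged from 52.3 to 69.9 CPM with a median of 59.1 (n = 6), and on L100 from 177 to 219 CPM with a median of 193 (n = 6). The G90-L10 libraries held 133 and 107 CPM, and the G75-L25 libraries 175, 168, 146 and 141 CPM at 24 h. The 4 feeds did not overlap at 24 h. At 48 h it ranged from 39.8 to 60.7 CPM on G100 with a median of 54.4 (n = 6). The G90-L10 libraries held 103 and 75.4 CPM, the G75-L25 libraries 118, 126, 92.2 and 114 CPM, and 5 L100 libraries 125 to 186 CPM. Each pair of neighbouring lactose feeds overlapped at 48 h, G100 lay below all of them, and the library labelled L100 48 h replicate 3 was lowest at 36.05 CPM.

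**Figure D1:**
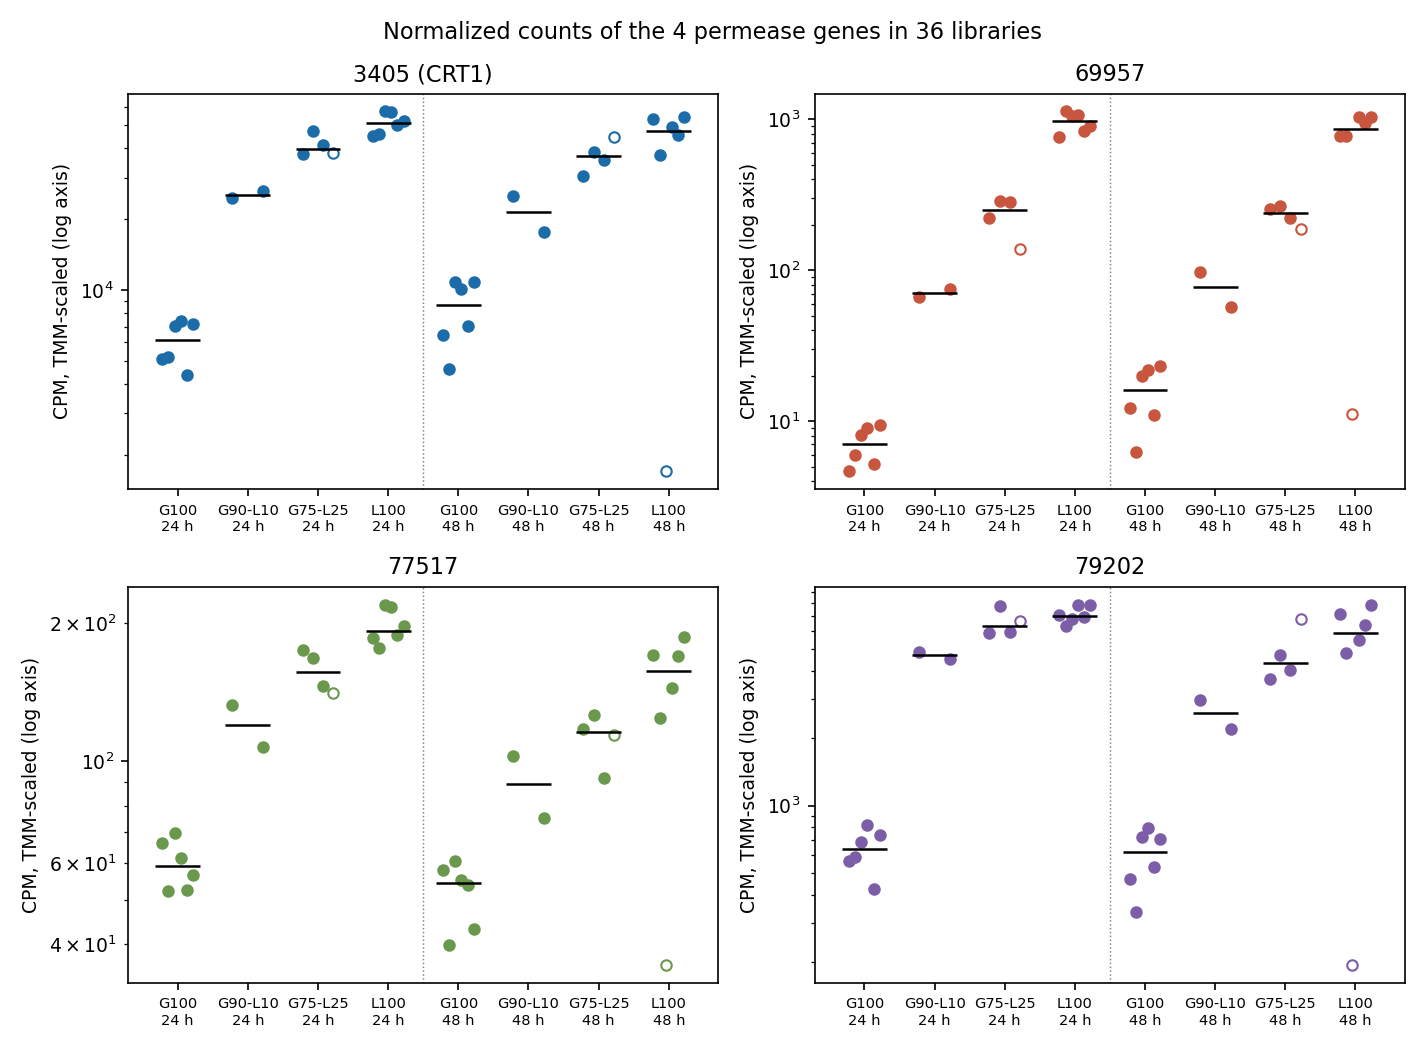
Normalized counts (CPM with TMM factors, log axis) of the 4 genes in the 36 libraries, by feed and time. Points are libraries, lines are group medians, and open points are the 3 libraries that stood apart from their groups. The G100 libraries sit below all lactose libraries in every panel except the library labelled L100 48 h replicate 3, which holds 1702 CPM of CRT1 and 11.2 CPM of TRIREDRAFT_69957.

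Within G100 at each time, the same 3 libraries held the highest levels of 3 of the genes. The numbers of libraries follow accession order, and the labels do not say whether libraries of 24 h and 48 h with the same number come from the same flask. At 24 h replicates 3, 4 and 6 were highest for CRT1, with 7008, 7382 and 7149.6 CPM, and they were highest for TRIREDRAFT_69957 and TRIREDRAFT_79202 as well. At 48 h the libraries numbered 3, 4 and 6 were highest for the same 3 genes, with 10793, 10145 and 10816 CPM of CRT1. TRIREDRAFT_77517 did not share this order, since replicate 1 was its second highest G100 library at both times, with 66.5 and 57.9 CPM.

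Ordered by mean CPM over the 8 groups, CRT1 went from L100 24 h (51133 ± 5252 CPM, SD, n = 6) through G75-L25 24 h, L100 48 h, G75-L25 48 h, G90-L10 24 h and G90-L10 48 h to G100 48 h (8315 ± 2623 CPM, SD, n = 6) and G100 24 h (6030.4 ± 1299 CPM, SD, n = 6). Only 2 steps in this order separated neighbours whose ranges did not overlap, that from G75-L25 48 h to G90-L10 24 h and that from G90-L10 48 h to G100 48 h. The order of TRIREDRAFT_69957 put both L100 groups first, both G75-L25 groups next (233 ± 36.7 CPM at 48 h and 232 ± 69.8 CPM at 24 h, SD, n = 4 each), then G90-L10 and G100, and within each feed the 2 times overlapped. For TRIREDRAFT_79202 and TRIREDRAFT_77517, G90-L10 24 h came near G75-L25 48 h, with 4683 ± 233 (SD, n = 2) and 4790.5 ± 1408 CPM (SD, n = 4) for TRIREDRAFT_79202 and 120.0 ± 18.0 (SD, n = 2) and 113 ± 14.5 CPM (SD, n = 4) for TRIREDRAFT_77517, and these neighbours overlapped.

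Levels of different genes were compared as CPM per kb of gene length, taken from the RefSeq annotation of QM6a, assembly v2.0, whose gene spans include introns. Over the 8309 genes with such a length, CRT1 ranked 4th on G100 at 24 h with 3405.1 ± 734 CPM per kb (SD, n = 6), 1st on G90-L10 at 24 h with 14350 ± 620 (SD, n = 2), and between 2nd and 3rd in the other 6 groups. TRIREDRAFT_79202 ranked 185th on G100 at 24 h with 405 ± 88.9 CPM per kb (SD, n = 6), 11th on both mixtures and 13th on L100 at that time. TRIREDRAFT_69957 climbed from rank 7042 on G100 at 24 h, with 3.96 ± 1.16 CPM per kb (SD, n = 6), through 2797 on G90-L10 and 729 on G75-L25 to 156 on L100, with 538 ± 81.5 (SD, n = 6). TRIREDRAFT_77517 climbed from rank 3227 to 972, with 32.9 ± 4.06 CPM per kb on G100 and 108 ± 9.48 on L100 at 24 h (SD, n = 6 each). On a scale per length, CRT1 was thus above the other 3 genes in every group, and TRIREDRAFT_69957 passed TRIREDRAFT_77517 between G90-L10 and G75-L25 at 24 h.

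Each lactose feed was compared with G100 to ask which genes respond to lactose at each share. All 4 genes were higher than on G100 in every one of these comparisons, and the edgeR quasi-likelihood test over all 36 libraries was used to call DE genes. A call needed a log2 fold change over 2 in size and an adjusted p under 0.001, as the study required. At 24 h CRT1 was over-expressed by a log2 fold change of 3.08 ± 0.41 (SE) on L100 (adjusted p = 3.57e-07) and 2.77 ± 0.42 on G75-L25 (adjusted p = 1.42e-05). On G90-L10 its log2 fold change was 2.08 ± 0.49, with an adjusted p of 0.0117 in the same test that did not pass. The 3 comparisons share the same G100 libraries.

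TRIREDRAFT_69957 had the largest log2 fold changes of the 4 at 24 h, with 7.08 ± 0.59 on L100 (edgeR adjusted p = 2.12e-10), 5.04 ± 0.56 on G75-L25 (adjusted p = 1.68e-07) and 3.32 ± 0.59 on G90-L10 (adjusted p = 0.00132, not called). On the linear scale the mean level on L100 was 136 times that on G100, against 8.48 times for CRT1. TRIREDRAFT_79202 rose by 3.49 ± 0.42 on L100 (edgeR adjusted p = 7.85e-08), 3.36 ± 0.43 on G75-L25 (adjusted p = 1.28e-06) and 2.88 ± 0.48 on G90-L10 (adjusted p = 7.53e-04). Its call on G90-L10 was the only one of the 4 genes on that feed and was lost when any of 22 single libraries was left out, among them all 8 libraries of the 2 groups compared, with adjusted p up to 0.0161. TRIREDRAFT_77517 had log2 fold changes of 1.72 ± 0.21, 1.39 ± 0.23 and 1.00 ± 0.28 on L100, G75-L25 and G90-L10, with edgeR adjusted p of 1.18e-07, 2.97e-05 and 0.0313. It was not called, since its fold change stayed below the threshold on every feed and its adjusted p on G90-L10 did not pass either.

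In all, 7 of the 12 pairs of gene and feed were called higher at 24 h, which were 3 genes on L100, 3 on G75-L25 and 1 on G90-L10. Of all 8347 genes tested, 2.71% were called higher on L100, 1.73% on G75-L25 and 0.216% on G90-L10 at 24 h. Over the 33 libraries CRT1, TRIREDRAFT_69957 and TRIREDRAFT_79202 were called on all 3 feeds, 9 of 12 pairs, where 2.82%, 1.93% and 0.984% of 8335 genes were called higher on L100, G75-L25 and G90-L10. For CRT1 on G90-L10 the log2 fold change was 2.08 in both fits, while its SE went from 0.49 to 0.23.

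At 48 h the same 3 genes were called on L100 and G75-L25 and none on G90-L10, 6 of 12 pairs. CRT1 rose by 2.28 ± 0.39 (SE) on L100 (edgeR adjusted p = 2.07e-05) and 2.17 ± 0.42 on G75-L25 (adjusted p = 3.43e-04), and differed by 1.36 ± 0.50 on G90-L10 (adjusted p = 0.0680, not called). The call of CRT1 on G75-L25 was lost, with edgeR adjusted p up to 0.00188, when G100 48 h replicate 1, 2 or 5 or G75-L25 48 h replicate 2 or 4 was left out. TRIREDRAFT_69957 rose by 5.61 ± 0.55 and 3.89 ± 0.53 on L100 and G75-L25 and differed by 2.30 ± 0.59 on G90-L10, with edgeR adjusted p of 6.20e-09, 1.13e-05 and 0.0113. TRIREDRAFT_79202 rose by 3.15 ± 0.41 and 3.01 ± 0.43 and differed by 2.12 ± 0.49, with edgeR adjusted p of 3.74e-07, 1.63e-05 and 0.00617 in the same order. The log2 fold changes of TRIREDRAFT_77517 were 1.42 ± 0.21, 1.12 ± 0.23 and 0.78 ± 0.28, again below the threshold. Its edgeR adjusted p on G90-L10 was 0.0608 and did not pass either.

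Of all genes, 2.61% were called higher on L100, 1.03% on G75-L25 and 0.0719% on G90-L10 at 48 h. Over the 33 libraries TRIREDRAFT_69957 and TRIREDRAFT_79202 were also called on G90-L10, with log2 fold changes of 2.30 ± 0.28 and 2.12 ± 0.22 (SE), for 8 of 12 pairs, beside 3.26%, 1.27% and 0.384% of all genes on L100, G75-L25 and G90-L10. Without the library labelled L100 48 h replicate 3 and the other 2, the difference of L100 from G100 grew from 2.28 to 2.53 for CRT1 and from 5.61 to 5.87 for TRIREDRAFT_69957 on the log2 scale. Scaling by library size alone lowered the median of all genes by 0.59 at 24 h and 0.58 at 48 h on L100 against G100, by 0.37 and 0.32 on G75-L25 and by 0.15 and 0.10 on G90-L10 on the log2 scale, and all 4 genes stayed higher than on G100 under it. At 48 h the calls of CRT1 were lost under that scaling, with log2 fold changes of 1.59 on L100 and 1.84 on G75-L25.

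**Figure D2:**
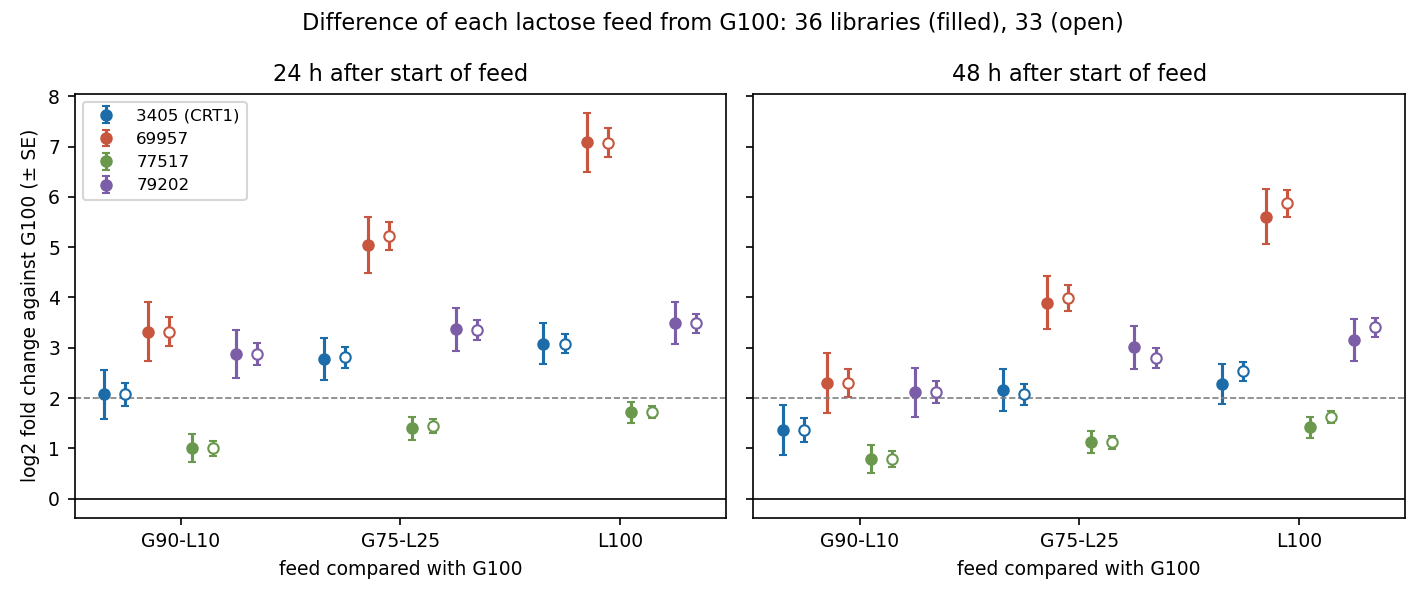
Log2 fold change of each gene on the 3 lactose feeds against G100 at 24 h (left) and 48 h (right), from edgeR, with bars of 1 SE. Filled points use 36 libraries, open points 33, and the dashed line marks the fold threshold of 2. TRIREDRAFT_69957 reaches 7.08 on L100 at 24 h and TRIREDRAFT_77517 stays below 2 throughout.

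The mixtures were compared with L100 to see how far each gene had reached its level on pure lactose. At 24 h the mean level of CRT1 on G90-L10 was 49.7% of that on L100, that of TRIREDRAFT_77517 was 60.9% and that of TRIREDRAFT_79202 was 65.6%, whereas that of TRIREDRAFT_69957 was 7.37%. With 25% lactose the shares were 80.6% for CRT1, 79.8% for TRIREDRAFT_77517, 91.8% for TRIREDRAFT_79202 and 24.2% for TRIREDRAFT_69957. TRIREDRAFT_69957 was thus furthest below its L100 level on both mixtures, without a test between genes. These shares at 24 h are over all 36 libraries. At 48 h over all 36 libraries, the G75-L25 shares were 92.8% for CRT1, 81.2% for TRIREDRAFT_77517, 90.6% for TRIREDRAFT_79202 and 30.4% for TRIREDRAFT_69957. On G90-L10 they were 53.0%, 64.3%, 48.7% and 10.1% in the same order. Over the 33 libraries at 48 h, the G75-L25 shares were 72.7% for CRT1, 70.4% for TRIREDRAFT_77517, 65.3% for TRIREDRAFT_79202 and 27.1% for TRIREDRAFT_69957, and on G90-L10 they were 44.4%, 56.0%, 40.8% and 8.41% in the same order.

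With 36 libraries none of the 16 pairs of gene, mixture and time was called against L100 by edgeR, 6 pairs had an unadjusted p below 0.05, all lower on the mixture, and DESeq2 called 3. The share of all genes called by DESeq2 was not computed. The log2 fold change of TRIREDRAFT_69957 against L100 at 24 h was -3.76 ± 0.81 (SE) with 10% lactose and -2.05 ± 0.54 with 25% lactose, with edgeR adjusted p of 0.00355 and 0.0108. At 48 h it was -3.31 ± 0.79 and -1.72 ± 0.53, with edgeR adjusted p of 0.00233 and 0.0174. Beside these, 0.012% of all genes were called lower with 10% lactose than on L100 at 24 h and 0.024% with 25% lactose, and at 48 h the shares were 0.144% and 0.024%.

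Over the 33 libraries TRIREDRAFT_69957 was called lower on G90-L10 than on L100 at both times, with log2 fold changes of -3.76 ± 0.38 (SE, edgeR adjusted p = 3.30e-08) and -3.57 ± 0.38 (adjusted p = 2.51e-08). These are 2 of 16 pairs, beside shares of all genes called lower of 0.792% (10% lactose) and 0.12% (25% lactose) at 24 h and 1.4% and 0.876% at 48 h. On G75-L25 TRIREDRAFT_69957 had log2 fold changes of -1.86 ± 0.28 and -1.88 ± 0.29, with edgeR adjusted p of 1.96e-05 and 5.77e-06, which misses the fold threshold. CRT1 on G90-L10 differed from L100 by -1.01 ± 0.27 at 24 h and -1.17 ± 0.28 at 48 h in these libraries, with edgeR adjusted p of 0.00518 and 9.42e-04 and a fold change below the threshold. Leaving out the library labelled L100 48 h replicate 3 alone gave 3 calls, all for TRIREDRAFT_69957, on G90-L10 at both times and on G75-L25 at 24 h. The share of all genes called in that fit is not given here. Between the fits of 36 and 33 libraries, calls over all genes rose as well. Genes lower on G90-L10 than on L100 went from 1 to 66 at 24 h and from 12 to 117 at 48 h.

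**Figure D3:**
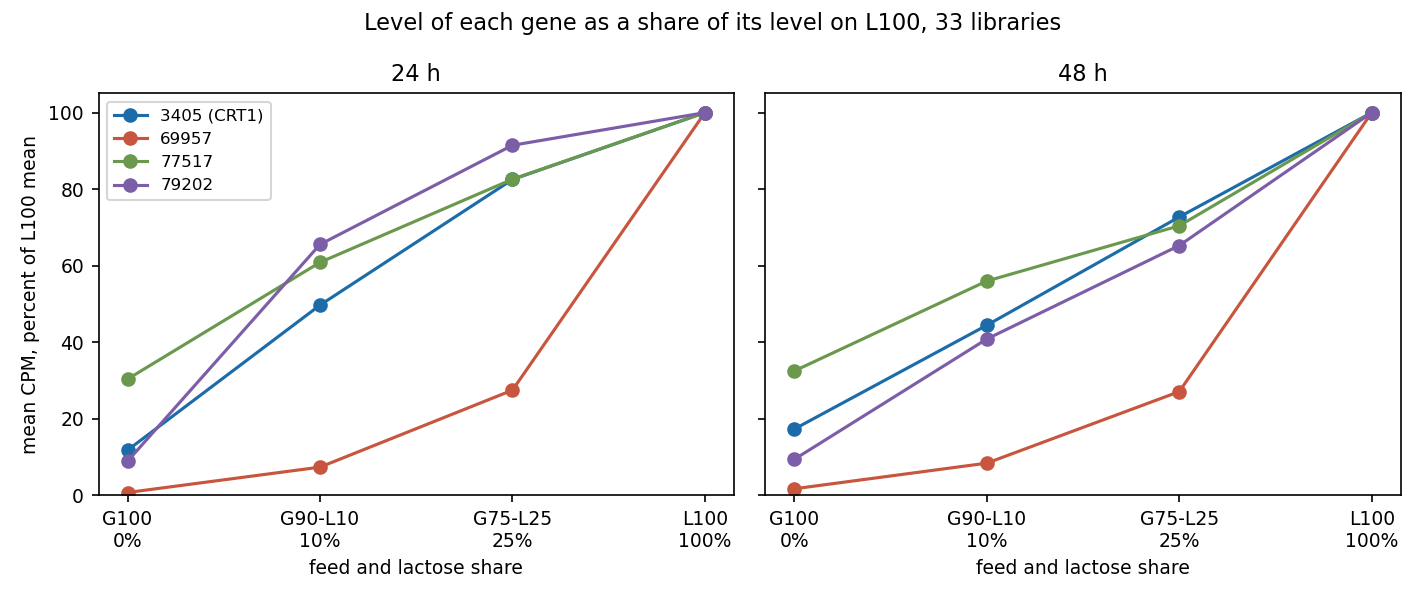
Mean CPM of each gene on each feed as a percentage of its mean CPM on L100 at the same time, over the 33 libraries. The feeds are placed at equal steps, with their lactose share under each name. On G90-L10 at 24 h CRT1 sits at 49.7% and TRIREDRAFT_69957 at 7.37%.

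The step from 10% to 25% lactose was compared directly between the mixtures, which share a label year. With 36 libraries none of the 8 pairs of gene and time was called by edgeR, 2 had an unadjusted p below 0.05, both for TRIREDRAFT_69957, and DESeq2 called 0. Of all 8347 genes 0% were called at 24 h and 0% at 48 h by edgeR, while 1251 and 1307 genes had an unadjusted p below 0.05. The log2 difference of TRIREDRAFT_69957, G75-L25 minus G90-L10, was 1.72 ± 0.74 (SE) at 24 h and 1.60 ± 0.73 at 48 h, with edgeR adjusted p of 0.264 and 0.290. In the 33 libraries it was 1.90 ± 0.36 and 1.69 ± 0.36, with adjusted p of 0.00934 and 0.0413 and a fold change below the threshold. The differences of the other 3 genes lay between 0.34 and 0.89 on the log2 scale with 36 libraries.

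Since only counts within 1 library enter it, the ratio between 2 of the genes does not depend on the scaling of libraries. On G100 at 24 h the log2 ratio of CRT1 to TRIREDRAFT_69957 counts ran from 9.56 to 10.10 (n = 6), on G90-L10 it was 8.45 and 8.54, on G75-L25 it ran from 7.19 to 8.12 (n = 4) and on L100 from 5.34 to 5.90 (n = 6). The 4 feeds did not overlap in this ratio, which was lower at each higher share of lactose. At 48 h the ratio ran from 8.87 to 9.54 on G100 (n = 6) and from 5.57 to 6.10 on L100 without replicate 3 (n = 5). The library labelled L100 48 h replicate 3 had a ratio of 7.25, between those 2 ranges, although its CRT1 level was below that of G100.

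The ratio of CRT1 to TRIREDRAFT_79202 spanned a narrower range, from 2.35 to 3.93 on the log2 scale over all libraries. It ran from 3.15 to 3.35 on G100 at 24 h and from 3.67 to 3.93 on G100 at 48 h (n = 6 each), without overlap. On L100 it ran from 2.66 to 3.07 at 24 h (n = 6) and from 2.80 to 3.17 at 48 h (n = 6). The log2 ratio of CRT1 to TRIREDRAFT_77517 ran from 6.26 to 6.98 on G100 and from 7.92 to 8.05 on L100 at 24 h (n = 6 each), and it was 5.56 in the library labelled L100 48 h replicate 3. These differences between genes were not tested.

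**Figure D4:**
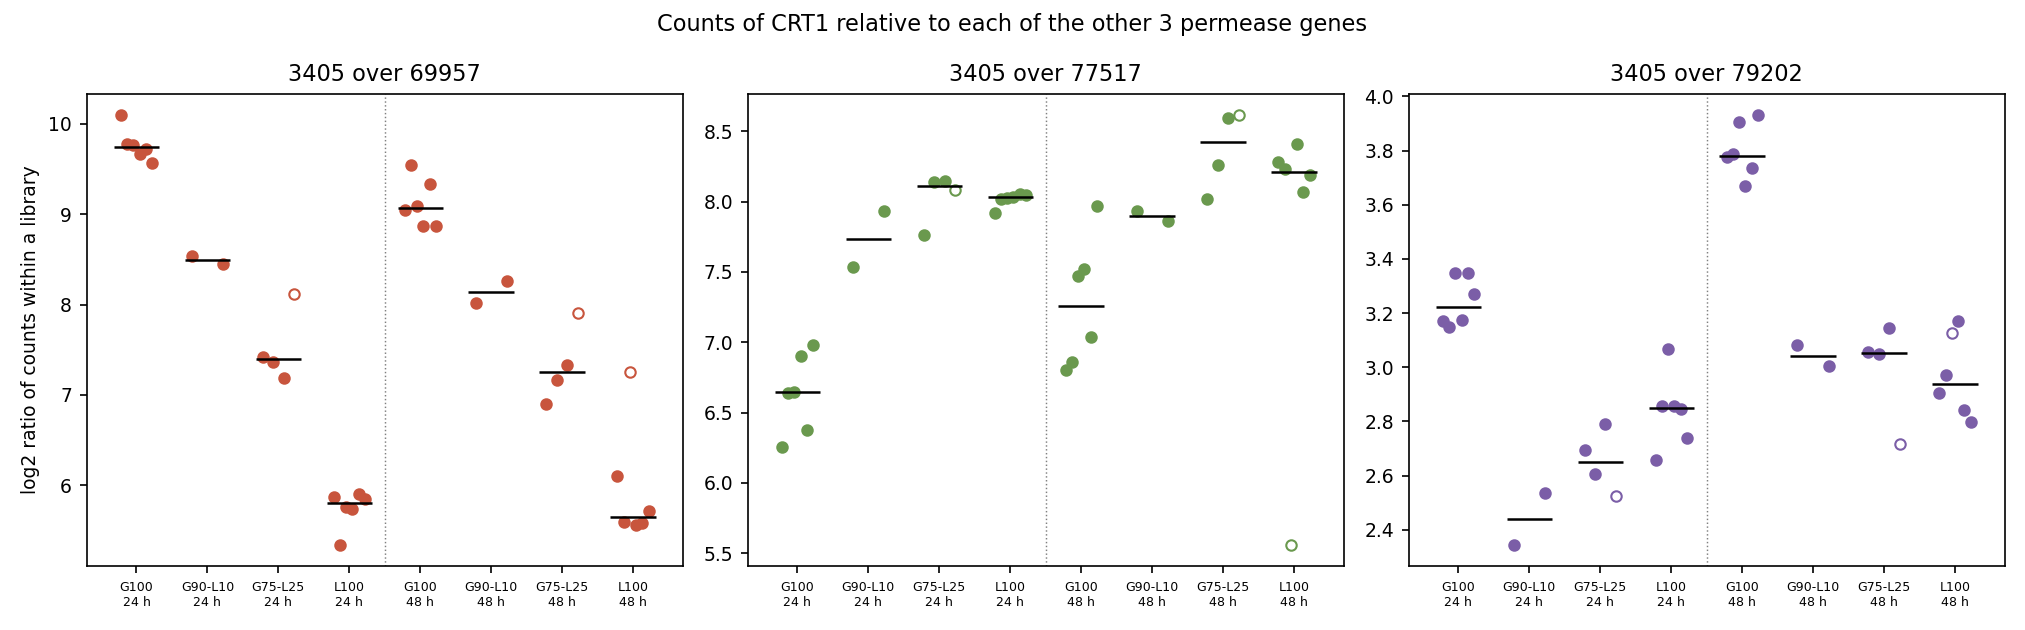
Log2 ratio of CRT1 counts to the counts of each of the other 3 genes within a library, by feed and time. Points are libraries, lines are group medians, and open points are the 3 libraries that stood apart. The ratio to TRIREDRAFT_69957 falls from 9.56 to 10.10 on G100 to 5.34 to 5.90 on L100 at 24 h.

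The sampling times were compared within each feed. Libraries of the 2 times may come from the same flasks, which the labels do not identify, so the test treated them as independent and its p-values do not use any such pairing. None of the 16 pairs of gene and feed was called by edgeR, 2 had an unadjusted p below 0.05 (1 higher and 1 lower at 48 h), and DESeq2 called 0, beside shares of all genes called of 0.0839% for G100, 0.012% for G90-L10, 0.024% for G75-L25 and 0.024% for L100. The largest of these differences was that of TRIREDRAFT_69957 on G100, where the mean was 7.06 ± 2.07 CPM at 24 h and 15.7 ± 6.82 CPM at 48 h (SD, n = 6 each), with a log2 difference of 1.15 ± 0.47 (SE, 48 h minus 24 h, edgeR adjusted p = 0.128). In the 33 libraries the same difference was 1.14 ± 0.23, with an adjusted p of 9.00e-04 and a fold change below the threshold. On L100 TRIREDRAFT_77517 differed by -0.51 ± 0.21 in 36 libraries and -0.31 ± 0.12 in 33, with edgeR adjusted p of 0.0770 and 0.0437.

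Whether the difference from G100 changed between 24 h and 48 h was tested as an interaction at an adjusted p below 0.05. With 36 libraries 0 of 12 pairs were called by edgeR, 1 had an unadjusted p below 0.05 (TRIREDRAFT_69957 on L100, lower at 48 h), and DESeq2 called 0, beside 0% of all genes for G90-L10, where 354 had an unadjusted p below 0.05, 0.0599% for G75-L25 and 0.024% for L100. The 12 estimates were all negative and ran from -0.22 to -1.47 on the log2 scale, and within each time all of them share 1 set of G100 libraries. The interaction of TRIREDRAFT_69957 on L100 was -1.47 ± 0.65 (SE, edgeR adjusted p = 0.354) with 36 libraries and -1.21 ± 0.32 (adjusted p = 0.0221) with 33, where it was called, beside 6.5% of all genes. Without the library labelled L100 48 h replicate 3 alone its adjusted p was 0.0498.

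The levels behind this estimate were as follows. On L100 the mean of TRIREDRAFT_69957 was 959 ± 145 CPM at 24 h (SD, n = 6) and 915 ± 133 CPM at 48 h without replicate 3 (SD, n = 5). On G100 it went from 7.06 to 15.7 CPM, with ranges of 4.65 to 9.44 CPM at 24 h and 6.21 to 23.1 CPM at 48 h. The ranges of the 2 times overlapped on both feeds.

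The genes whose log2 CPM over all 36 libraries was most like that of each member are given as a description. For CRT1 they were TRIREDRAFT_120749, which encodes the intracellular β-glucosidase BGL2 (CEL1A), with Pearson r = 0.993, then TRIREDRAFT_103799 (r = 0.991) and TRIREDRAFT_79202 (r = 0.983). Without the 3 libraries that stood apart, r for these was 0.993, 0.989 and 0.984. For TRIREDRAFT_79202 the same genes came up, TRIREDRAFT_103799 (r = 0.988), BGL2 (r = 0.986) and CRT1 (r = 0.983).

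For TRIREDRAFT_69957 the 3 were its direct neighbour TRIREDRAFT_69944, a putative glycoside hydrolase of family 31 (r = 0.993), the putative MFS sugar transporter TRIREDRAFT_56684 (r = 0.989) and TRIREDRAFT_110894, a putative glycoside hydrolase of family 30 (r = 0.989). For TRIREDRAFT_77517 they were TRIREDRAFT_106647 (r = 0.971), TRIREDRAFT_47930 (r = 0.961) and TRIREDRAFT_106491 (r = 0.959), of which TRIREDRAFT_106491 is listed by the study as a protein of unknown function. Among the members themselves r ran from 0.923 for TRIREDRAFT_69957 and TRIREDRAFT_77517 to 0.983 for CRT1 and TRIREDRAFT_79202. All of these values are over 36 libraries in 8 groups, so that the points of a group share a feed.

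The 2 genes on either side of each member were looked up in the order of the RefSeq annotation of assembly v2.0. This is the order in QM6a. It was not checked in Rut-C30, whose genome differs from it by translocations, large deletions and an inversion according to the study. CRT1 lay next to TRIREDRAFT_26163, which encodes CLR2, a transcription factor known as an activator of cellulase genes in *Neurospora crassa*. On L100 against G100 CLR2 differed by 2.48 ± 0.29 (log2, SE) at 24 h and 1.94 ± 0.29 at 48 h over 36 libraries, and only the value of 24 h was called (edgeR adjusted p = 7.49e-08 and 2.34e-06). Over the 33 libraries CLR2 was called at 48 h as well, with 2.18 ± 0.14 (edgeR adjusted p = 3.07e-14). On the other side of CRT1, TRIREDRAFT_106164, a putative NAD(P)-binding protein, was called at 24 h with 2.75 ± 0.47 (edgeR adjusted p = 1.42e-05), and the next genes outward, TRIREDRAFT_47069 and TRIREDRAFT_59364, had log2 fold changes of 0.29 and 0.46.

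TRIREDRAFT_69957 lay next to TRIREDRAFT_69944, which was over-expressed by 5.07 ± 0.47 (SE) at 24 h and 3.78 ± 0.44 at 48 h (edgeR adjusted p = 1.14e-09 and 8.66e-08). On its other side TRIREDRAFT_112022 had a log2 fold change of 0.95 ± 0.29 at 24 h and was not called. Beyond it TRIREDRAFT_69896 had 2.48 ± 0.63 at 24 h over 36 libraries (edgeR adjusted p = 0.00146, not called). Over the 33 libraries TRIREDRAFT_69896 was called, with 2.53 ± 0.61 (adjusted p = 6.47e-04). The gene beyond TRIREDRAFT_69944, TRIREDRAFT_69883, had -0.03 ± 0.37 at 24 h over 36 libraries. TRIREDRAFT_77517 lay between TRIREDRAFT_22197, which encodes the β-glucosidase CEL1B, and TRIREDRAFT_60945, with TRIREDRAFT_77513 for the cellulase activator ACE3 beyond CEL1B. CEL1B and ACE3 were called at 24 h, with 2.00 ± 0.26 and 2.23 ± 0.22 (edgeR adjusted p = 2.33e-07 and 3.32e-09), and differed by 1.02 ± 0.25 and 0.83 ± 0.21 at 48 h, whereas TRIREDRAFT_60945 had 0.11 ± 0.29 at 24 h. Beyond TRIREDRAFT_60945, TRIREDRAFT_106885 had 1.97 ± 0.25 at 24 h (edgeR adjusted p = 1.79e-07), just below the fold threshold.

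Around TRIREDRAFT_79202 the 2 direct neighbours had log2 fold changes of opposite sign. The putative small secreted cysteine protein TRIREDRAFT_108663 was called at 24 h with 2.67 ± 0.25 (edgeR adjusted p = 1.37e-09). The putative G protein-coupled receptor TRIREDRAFT_63981 had -2.04 ± 0.55 with an adjusted p of 0.00228 over 36 libraries, and -2.04 ± 0.29 with an adjusted p of 4.30e-07 over 33, where it was called lower. The next genes outward, TRIREDRAFT_122499 and TRIREDRAFT_4484, had 1.76 ± 0.25 and -0.49 ± 0.20 at 24 h over 36 libraries, below the fold threshold.

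**Figure D5:**
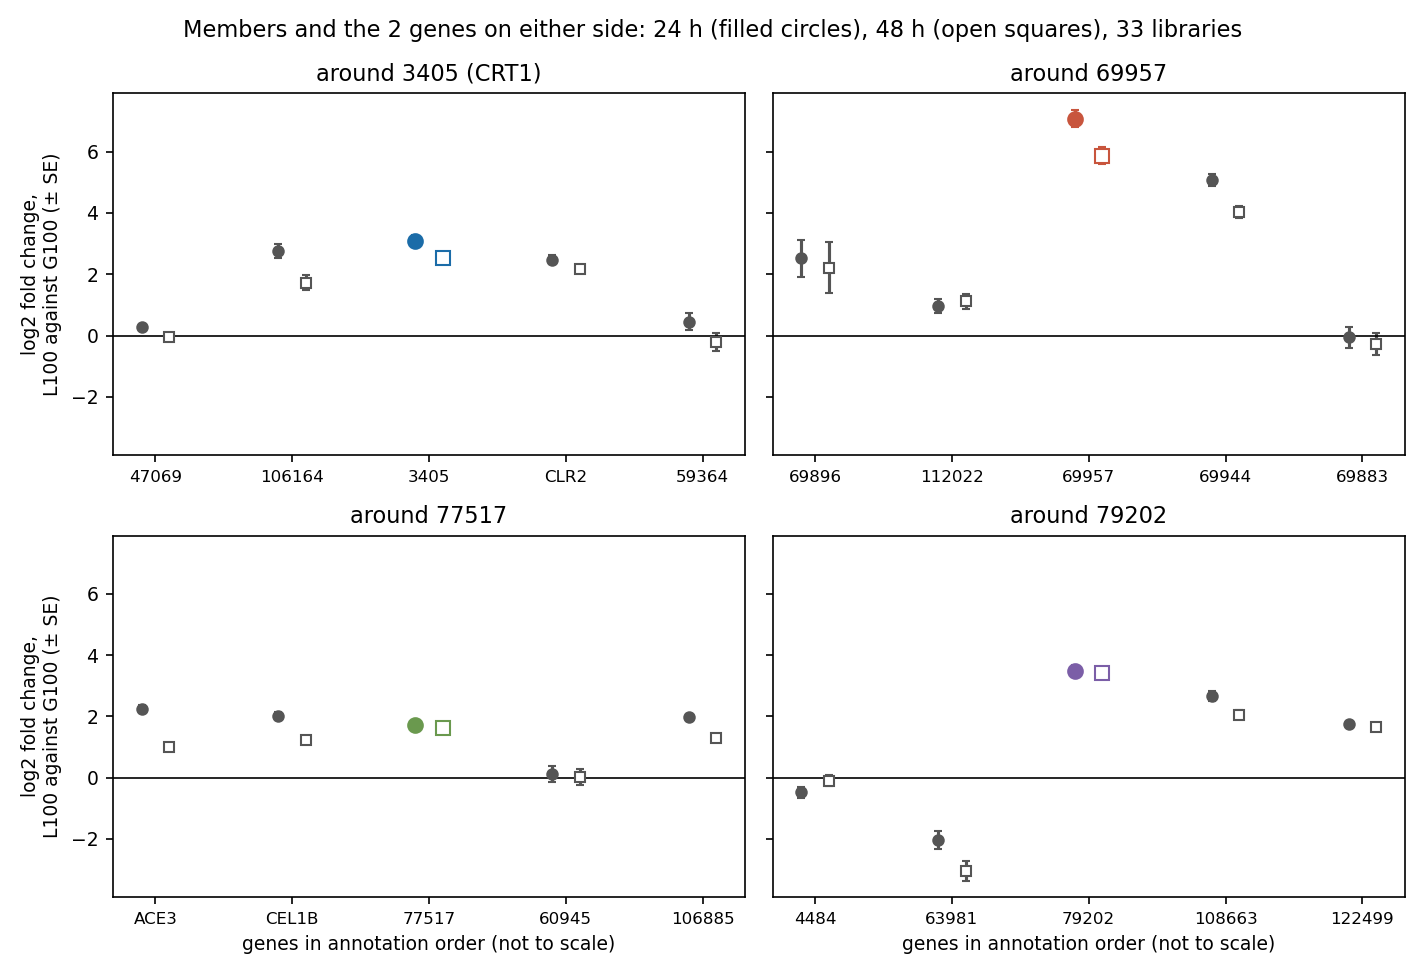
Log2 fold change of L100 against G100 for each member (coloured) and the 2 genes on either side in annotation order (grey), over 33 libraries, with bars of 1 SE. Circles are 24 h and open squares 48 h, and the genes are spaced evenly and not to scale. The neighbours TRIREDRAFT_69944 (5.07), ACE3 (2.23) and CLR2 (2.48) are high at 24 h, and TRIREDRAFT_63981 is at -2.04.

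Genes that act on lactose or on cellulase induction were set beside the permeases as a list of 12. The study reports most of them as DE in these same samples, so their direction is not independent evidence. At 24 h edgeR called 11 of them higher on L100, 9 on G75-L25 and 0 on G90-L10 over 36 libraries, with median log2 fold changes of 3.13, 2.63 and 1.81 beside -0.03, -0.01 and 0.00 over all genes. On G90-L10 all 12 log2 fold changes were above 0 and 11 had an edgeR adjusted p below 0.05 but missed at least 1 of the thresholds, and over the 33 libraries 5 were called. BGA1 (TRIREDRAFT_80240), the extracellular β-galactosidase that splits lactose, rose by 3.41 ± 0.34 (SE) on L100 (edgeR adjusted p = 3.63e-09), from 114 ± 29.7 to 1215 ± 207 CPM (SD, n = 6 each). XYR1 (TRIREDRAFT_122208), the main activator of cellulase genes, rose by 2.23 ± 0.26 (adjusted p = 4.24e-08), and CBH1 (TRIREDRAFT_123989) by 4.93 ± 0.51 (adjusted p = 7.21e-09). BGL1 (TRIREDRAFT_76672), the extracellular β-glucosidase, was the one not called on L100, with 1.22 ± 0.44 (adjusted p = 0.0196).

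At 48 h 7 of these 12 genes were called higher on L100, 7 on G75-L25 and 0 on G90-L10 over 36 libraries, with medians of 2.43, 2.17 and 1.21 beside -0.02, 0.00 and 0.03 over all genes. BGL1 was below G100 on each lactose feed at 48 h and was not called, while the other genes of the list were above G100. Its log2 fold changes were -0.45 ± 0.44 (SE) on L100, -0.12 ± 0.49 on G75-L25 and -0.66 ± 0.64 on G90-L10. BGA1 rose by 2.71 ± 0.33 (SE) on L100 (edgeR adjusted p = 1.40e-07), and XYR1 differed by 1.74 ± 0.25, below the fold threshold. The transcript of BGL2, whose levels followed CRT1, rose by 2.86 ± 0.37 at 24 h and 2.14 ± 0.36 at 48 h (adjusted p = 2.35e-07 and 1.23e-05).

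The 9 other sugar transporters came from the study's own list of DE genes in these samples, so their direction is not independent evidence. On L100 at 24 h edgeR called 7 of the 9 higher and 1 lower over 36 libraries, with a median log2 fold change of 3.89, and at 48 h 7 higher and 0 lower with a median of 3.46. Of all 8347 genes, 226 were called higher and 126 lower at 24 h, and 218 higher and 74 lower at 48 h. The medians over all genes were -0.03 and -0.02. On G75-L25 7 of the 9 transporters were higher at 24 h and 6 at 48 h. On G90-L10 1 was higher at each time, the putative sugar transporter TRIREDRAFT_54632. Of all genes, 144 and 86 were called higher on G75-L25 at 24 h and 48 h, and 18 and 6 on G90-L10. The putative sugar transporter TRIREDRAFT_56684 rose by 5.25 ± 0.45 (SE) on L100 at 24 h (edgeR adjusted p = 3.92e-10) and the xylose permease XLT1 (TRIREDRAFT_104072) by 3.89 ± 0.36 (adjusted p = 1.14e-09). On L100 at 24 h over 36 libraries, the log2 fold change of TRIREDRAFT_69957 was larger than that of each of the 9 transporters. That of TRIREDRAFT_77517 was smaller in size than 8 of the 9 in the same comparison. No test between genes was made, and this order did not hold on every feed and time.

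The transporter called lower on L100 at 24 h was TRIREDRAFT_22912, a putative high-affinity glucose transporter. It held 125 ± 47.2 CPM on G100 and 22.6 ± 4.50 CPM on L100 at 24 h (SD, n = 6 each), a log2 fold change of -2.47 ± 0.60 (SE, edgeR adjusted p = 9.62e-04). At 48 h its log2 fold change was -0.62 ± 0.57 (adjusted p = 0.359) over 36 libraries and -2.59 ± 0.34 (adjusted p = 1.02e-07) over 33, and the highest L100 48 h library held 376 CPM. The putative maltose transporter TRIREDRAFT_59388 was also lower on L100 but not called over 36 libraries. Its log2 fold changes were -1.49 ± 0.37 at 24 h and -1.37 ± 0.37 at 48 h (edgeR adjusted p = 0.00127 and 0.00281). Over the 33 libraries at 48 h edgeR called 7 of the 9 transporters higher and 2 lower on L100 than on G100. Beside these, 272 of all 8335 genes were called higher and 314 lower.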

How the data were processed

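RNA of Rut-C30 mycelium was sequenced in 36 libraries from fed-flask cultures. Per the study's methods, the broth of each starter culture was divided among flasks given lactose, glucose or a mixture, and the number of replicate flasks of a feed equals its number of libraries at each time, so libraries of different feeds share a starter culture and those of 24 h and 48 h may share a flask. The labels do not say which, and the model treats all libraries as independent. The labels also split the pure feeds from the mixtures by year, although the methods describe them as fed from the same starter cultures. How these go together could not be settled from the sources used here. Libraries were strand-specific (TruSeq) with 50-base reads. Reads were trimmed in Eoulsan and counted on the genes of JGI annotation version 2, and the submitters' processing notes name bcl2fastq 2.17.1.14, Bowtie and HTSeq 0.5.3. Each file deposited by the authors holds the whole-number counts of 1 library on 9129 genes, without normalization. How reads shared by similar genes were counted is not given in the sources used here.

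Counts were fitted in R 4.3.3 with the package edgeR 4.0.16. Its filterByExpr step (minimum count 10) kept 8347 genes, or 8335 over 33 libraries. TMM factors were used, with 1 quasi-likelihood model of 8 groups and Benjamini-Hochberg adjustment over all tested genes. Calls needed a log2 fold change over 2 in size and an adjusted p under 0.001, the thresholds of the study, which used DESeq 1.8.3 by pairs of conditions. That version was not run. Interactions were called at an adjusted p below 0.05. The SE is the absolute log2 fold change divided by the square root of the F statistic. CPM used TMM factors, and log2 CPM a prior count of 2. Scripts were tested on simulated data. Summaries and figures used Python 3.11.15, numpy 2.4.6, pandas 2.3.3 and matplotlib 3.10.9.

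Alternatives were DESeq2 1.42.0, RLE factors, library size alone, other filters, only the groups compared, each library left out, and the 33 libraries. The 4 genes, the lists and the 3 libraries left out were chosen with earlier results of these data known. Named genes are the members, the 3 genes most like each by Pearson correlation, the 2 genes on either side, 12 genes of lactose use and cellulase induction, and 9 other sugar transporters. A list by product name could not be drawn up from the gene table used, which gave names and order for 9072 of 9129 identifiers. Promoters and proteins were not analysed here. Replicate numbers follow accession order and were not used to pair libraries.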

Additional observations from a re-analysis of the deposited data

Results flagged for a closer look

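Of 24 sets of a gene and a group with 4 to 6 libraries, 2 held a library whose gap to the nearest other library was large against the range of the group, and chance alone gives about 1 in 20 such sets. Both were the library labelled L100 48 h replicate 3. It held 1702 CPM of CRT1, where the other 5 L100 48 h libraries held 37529 to 54472 CPM. It held 11.2 CPM of TRIREDRAFT_69957, where the other 5 held 775 to 1038 CPM. In the same library TRIREDRAFT_77517 was at 36.05 CPM against 125 to 186 CPM and TRIREDRAFT_79202 at 195 CPM against 4781 to 7839 CPM, gaps just under the limit, and the cellobiohydrolase CBH2 was at 2262 CPM against 87279 to 112752 CPM. Whether this library carries the right label could not be settled from the sources used here.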

How the results depend on the processing

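The calls against G100 kept their direction under every alternative run, with 6 to 9 of 12 pairs at 24 h and 5 to 8 of 12 at 48 h when single libraries were left out. Calls against L100 numbered 0 of 16 with 36 libraries, 3 with DESeq2, 2 when only the groups compared were fitted, 2 without the 3 libraries and 2 without them in DESeq2, and 0 to 3 when single libraries were left out, with 3 only without L100 48 h replicate 3. Without the 3 libraries, edgeR calls against L100 over all genes rose as well. Interactions numbered 0 of 12, 1 without the 3 libraries, 1 without them in DESeq2, and 0 to 1 when single libraries were left out, with 1 only without L100 48 h replicate 3. For the steps between mixtures and between times the count was 0 throughout. At 24 h against G100 the count was 8 with DESeq2 and 9 when only the groups compared were fitted, and at 48 h it was 4 when only those groups were fitted and 4 with library size alone, where CRT1 lost both its calls. Of the mean CPM values of a gene in a group, 11 of 32 moved by more than 1 SD under library size alone. No paired analysis was possible because the labels do not say which libraries come from the same starter culture or flask, although the study's methods describe starter cultures divided among the feeds, and no test here takes that shared origin into account. G90-L10 has 2 libraries at each time, which limits what its tests can call, and p-values on it rest on the spread of the other groups.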
